A study of Mus musculus with 6 samples.

Results

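The proteins of the cytosolic ribosome were followed through liver RNA from mice of the C57BL/6J strain, in 3 libraries labelled CRY1 KO and 3 labelled WT. The genes were chosen by symbol alone: every Rpl, Rps, Rplp and Rpsa symbol of the deposited table, without the ribosomal S6 kinases and without symbols marked as pseudogenes. The table held 79 such genes among its 15092, with 48 in the large (60S) subunit and 31 in the small (40S) subunit. Polyadenylated RNA, extracted with phenol and chloroform, had been sequenced from a stranded kit. In the labels the tissue is liver, and the cell type is given as hepatocyte. The libraries labelled CRY1 KO are described as a knockout of Cry1, a cryptochrome that represses CLOCK and BMAL1 in the circadian clock, and the WT libraries as wild type. No sex, age, time of day, feeding state or design of the knockout allele is labelled for either group, and the prefix NC that all titles carry is not explained. The labels do not say that the 3 replicates of a group came from separate animals, so the p-values below measure the spread between these libraries, which may be technical. The comparison is between libraries by these labels, for the RNA of the translation machinery.

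A cytosolic ribosome is built from ribosomal RNA and about equal amounts of most ribosomal proteins, many of which enter the large or the small subunit in the nucleolus. Their mRNAs usually start with a C followed by an unbroken run of pyrimidines, the terminal oligopyrimidine (TOP) motif, through which LARP1 and the kinase complex mTORC1 control whether they are translated. In mouse liver, synthesis of ribosomes is known to be rhythmic, and the clock takes part in timing it.

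Library totals ranged from 79708703 to 91316332 estimated counts. Cry1 itself was not lower in the libraries labelled CRY1 KO, with 561, 521 and 445 estimated counts there against 413, 579 and 694 in WT (log2 difference -0.03, SE 0.19, edgeR adjusted p = 0.954), so its total count does not check the labels. Every direction below is therefore that of the labels. All 9 hepatocyte markers, such as albumin and transthyretin, were detected in every library. Their summed levels were 89928 to 99034 CPM (counts scaled by library size) in the libraries labelled CRY1 KO and 84138 to 90894 CPM in WT. Of the 9 log2 differences, 5 were above 0 and 4 below 0. Hnf4a was called higher (log2 difference 0.73, edgeR adjusted p = 0.0389), where 1.06% of all genes tested were called higher. The 11 Kupffer cell markers summed to 234 to 236 CPM in libraries labelled CRY1 KO and 255 to 650 CPM in WT. All 11 log2 differences were below 0, with a median of -0.86. At an unadjusted edgeR p under 0.05, 8 of the 11 were lower, against 9.84% of all genes tested, and none was called. The 7 erythroid markers summed to 582 to 736 CPM in libraries labelled CRY1 KO and 655 to 2983 CPM in WT, with 6 of 7 below 0 and none called. Of the 9 endothelial markers 7 were above 0, 3 of them at an unadjusted p under 0.05, and none was called. Markers of B and plasma cells, of T and natural killer cells and of neutrophils were summed list by list. Each list came to at most 4.30 CPM in any library labelled CRY1 KO and at most 13.3 CPM in any WT library. Across these lists 4 genes were at 0 in at least 1 library. All 5 detected B and plasma cell markers were below 0. Jchain, of plasma cells, was called lower (log2 difference -2.45, edgeR adjusted p = 0.0194), where 0.644% of all genes tested were called lower. Mitochondrially encoded genes took 8.47% to 9.45% of the counts in the libraries labelled CRY1 KO and 5.82% to 8.62% in WT. The part of these other cells and of mitochondrial RNA in the results below was not tested. In bulk liver, fewer cells of a type and less RNA per cell cannot be told apart.

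Ribosomal protein RNA was slightly lower on average in the libraries labelled CRY1 KO, but no single gene passed the test. Of the 79 genes, 78 passed the filter on low counts, and 71 of these had a negative log2 difference, or 91.03%, against 52.7% of all 13816 genes tested. Among other genes with short transcripts the share was higher than that: 78.3% under 500 bases, 79.5% from 500 to under 750, and 75.1% from 750 to under 1000. Of the 78 members 61 had transcripts under 1 kb. The median log2 difference of the 78 genes was -0.13, a level 8.67% lower, and that of all genes tested was -0.02. The interquartile range ran from -0.19 to -0.07, so most members lay close to that small shift. None of the 78 was called by edgeR's quasi-likelihood test at an adjusted p under 0.05, where 1.70% of all genes tested were called (0.644% lower, 1.06% higher). At an unadjusted p under 0.05 there were 10 of 78, or 12.8%, with 9 lower and 1 higher, against 20.7% of all genes tested (9.84% lower, 10.9% higher). DESeq2 called 2 of them lower, Rps29 and Rplp2, where it called 10.5% of all genes (4.36% lower).

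Single libraries moved these counts. The unadjusted count of 10 became 5, 2, 3, 5 and 23 without CRY1 KO 2, CRY1 KO 3, WT 1, WT 2 and WT 3, or 6.41%, 2.56%, 3.85%, 6.41% and 29.5% of the members. Over all genes tested in these fits the share was 14.4%, 13.9%, 20.9%, 14.3% and 26.4%. Without WT 1 the median was closer to 0, at -0.07, with 61 of 78 below 0. Without WT 3 it was -0.18 and edgeR called 2 members lower, Rps29 and Rps20, and 6.04% of all genes (2.63% lower). The precision was high for this table: the standard error (SE) of a log2 difference had a median of 0.098 over the ribosomal proteins, against 0.157 over all genes tested. For 74 of the 78 the 95% interval lay within a 1.5-fold difference in either direction, and it reached past that for Rps29, Rps20, Rplp1 and Rps9. A difference above 1.5-fold was thus outside the interval of 74 genes, while small differences were not detectable one gene at a time.

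**Figure D1:**
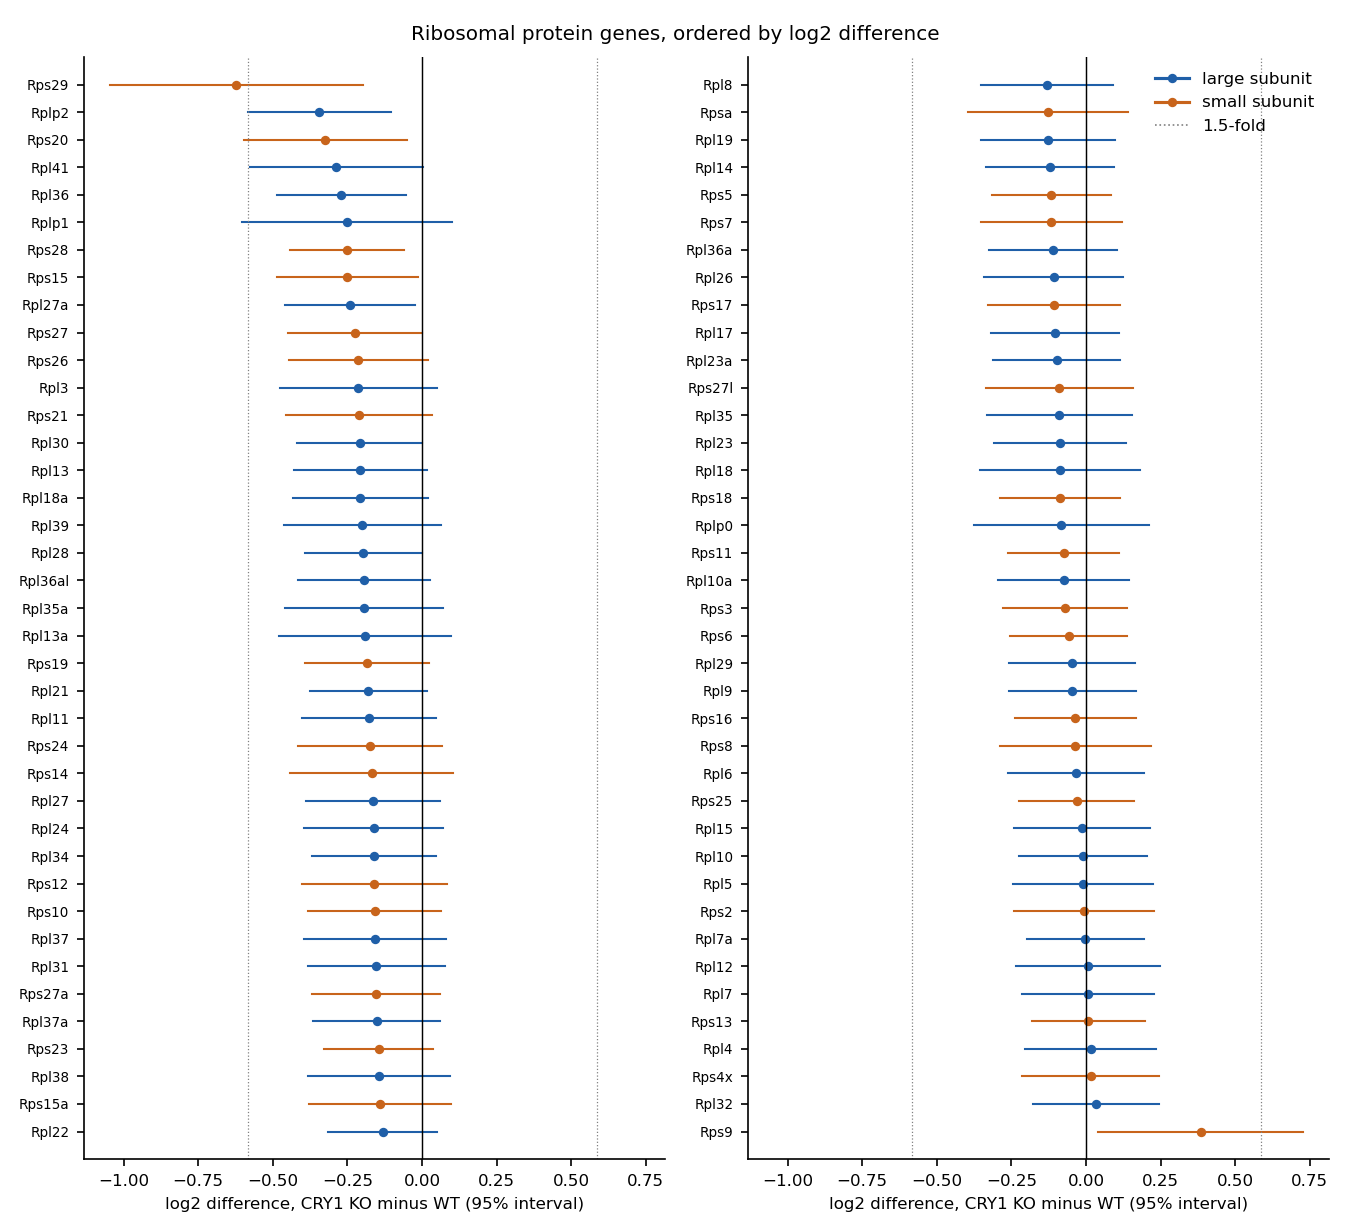
log2 difference, libraries labelled CRY1 KO minus WT, of the 78 ribosomal protein genes tested (n = 3 libraries each), ordered from the lowest to the highest; points are edgeR estimates, lines 95% intervals, blue the large and orange the small subunit, and dotted lines mark 1.5-fold. Of the 78 points 71 lie left of 0, Rps29 lies farthest left at -0.62 and Rps9 farthest right at 0.38.

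The large and the small subunit had nearly equal medians. The median log2 difference was -0.13 over the 47 tested genes of the large subunit, 43 of them below 0, and -0.13 over the 31 of the small subunit, 28 of them below 0. Summed estimated counts of the large subunit over those of the small subunit gave ratios of 1.61, 1.67 and 1.60 in the libraries labelled CRY1 KO, against 1.66, 1.64 and 1.65 in WT. These ratios overlapped between the groups. Within the small subunit, 14 of 14 genes of the head had a negative log2 difference (median -0.16), and 13 of 16 of the body and platform (median -0.12). In the large subunit, the 8 genes around the exit of the peptide tunnel were all below 0 within a narrow range, -0.20 to -0.09. None of the genes in these groups was called.

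The sequence at annotated transcription starts was searched for the pyrimidine run of TOP mRNAs, which the choice of genes by symbol did not use. RefSeq promoters of GRCm38.p6 (250 bases before to 50 from the start) matched 59 of the 79 genes, with 71 starts. An unbroken run of at least 7 pyrimidines (C or T) covered an annotated start in 19 of the 59, or 32.2%, against 6.24% of 10858 other tested genes, 6.22% of all genes in that table and 1.45% of the 69 matched mitochondrial ribosomal protein genes. Elongation factors and other genes known for TOP mRNAs had it in 4 of 12, or 33.3%. The runs were 7 to 21 bases long with a median of 11, and 12 of the 19 had C as the first base of the run. That base lay before the annotated start in each of the 19, so this is no count of starts at a C. These annotated starts may differ from the starts used in liver. The sequences of 8 of the 19 follow, 60 bases each, with 30 before the start and 30 from it, 5′ to 3′ on the gene's strand, and with the run over the start in capitals. They were picked to cover the range of log2 differences, beginning with the lowest, Rplp2 at -0.34, and ending with the highest, Rps9 at 0.38.
Rplp2, chr7:141447621-141447680, plus strand: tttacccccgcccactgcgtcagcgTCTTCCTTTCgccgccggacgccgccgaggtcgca
Rpl27a, chr7:109519165-109519224, plus strand: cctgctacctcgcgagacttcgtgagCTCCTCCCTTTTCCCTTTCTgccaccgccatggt
Rps27, chr3:90213619-90213678, minus strand: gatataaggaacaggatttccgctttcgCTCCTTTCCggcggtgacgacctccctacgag
Rpl28, chr7:4792935-4792994, plus strand: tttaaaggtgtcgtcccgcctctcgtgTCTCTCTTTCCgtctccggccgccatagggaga
Rps10, chr17:27635215-27635274, minus strand: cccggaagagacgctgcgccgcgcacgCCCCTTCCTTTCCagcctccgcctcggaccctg
Rps6, chr4:86857338-86857397, minus strand: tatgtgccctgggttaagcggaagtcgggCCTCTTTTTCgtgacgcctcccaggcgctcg
Rpl7a, chr2:26910777-26910836, plus strand: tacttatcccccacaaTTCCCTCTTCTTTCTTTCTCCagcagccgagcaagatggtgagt
Rps9, chr7:3704011-3704070, plus strand: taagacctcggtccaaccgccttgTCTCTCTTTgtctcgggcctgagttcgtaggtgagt
The motif CTTTCC, seen in several of these runs and searched for that reason on the gene's strand from 10 bases before to 50 after the start, was held by 28.8% of the matched ribosomal protein genes and 2.86% of other tested genes. It was held by 38.9% of the 36 matched genes of the large subunit and 13.0% of the 23 of the small subunit. The clock's E-box CACGTG, searched on both strands of the 300 bases, was no more frequent in them (10.2%) than in other tested genes (11.2%). The ETS-type motif CCGGAAGT stood in 20.3% against 8.37%, AAGATGGCG, a motif of YY1, in 5.08% against 3.29%, and TATAAA in 10.2% against 9.55%. Mitochondrial ribosomal protein genes held the ETS-type motif in 17.4% and the YY1 motif in 11.6%. Members with the run of at least 7 over the start had a median log2 difference of -0.15 (n = 19), and the other matched members one of -0.12 (n = 39). With the E-box the median was -0.14 (n = 6), and without it -0.13 (n = 52).

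Among the proteins of the large subunit, the stalk held the lowest log2 difference. The stalk is formed by Rplp0 and the acidic proteins Rplp1 and Rplp2, and it recruits the GTPases that drive translation. Rplp2 measured 91.8, 80.8 and 76.8 CPM in libraries labelled CRY1 KO, against 114, 108 and 95.1 CPM in WT. The groups did not overlap, and the log2 difference was -0.34 (SE 0.10, edgeR adjusted p = 0.121, exact two-sided permutation p = 0.1, the smallest that 3 against 3 libraries allow). Rplp1 measured 205, 177 and 161 CPM in libraries labelled CRY1 KO and 257, 217 and 173 CPM in WT, overlapping groups with a log2 difference of -0.25 (edgeR SE 0.15, adjusted p = 0.382). Without WT 1 that difference was -0.11. Rplp0, often used as a reference transcript in PCR assays, measured 327, 332 and 299 CPM in libraries labelled CRY1 KO, against 400.4, 326 and 287 CPM in WT. Its high WT mean came from WT 1, and its log2 difference was -0.08 (SE 0.13), which turned positive, 0.06, without WT 1.

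Rpl41, the shortest ribosomal protein, which lies between the subunits, measured 199, 180.0 and 164 CPM in libraries labelled CRY1 KO, against 249, 227 and 186 CPM in WT (log2 difference -0.29, SE 0.13, edgeR adjusted p = 0.246). Its groups overlapped only through CRY1 KO 1 and WT 3. Rpl36, also a short protein, measured 75, 73.5 and 73.4 CPM in libraries labelled CRY1 KO and 99.96, 85.5 and 82.3 CPM in WT. The groups did not overlap (log2 difference -0.27, SE 0.09, edgeR adjusted p = 0.160, exact permutation p = 0.1).

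Rpl5 and Rpl11 join 5S rRNA in a particle that binds MDM2 when ribosome assembly is disturbed. Rpl5 measured 262, 277 and 239 CPM in libraries labelled CRY1 KO, against 288, 252 and 243 CPM in WT, with a log2 difference of -0.01 (SE 0.10). Rpl11 measured 190, 174 and 159 CPM in libraries labelled CRY1 KO, against 209.7, 197 and 184 CPM in WT, with a log2 difference of -0.18 (edgeR SE 0.10, adjusted p = 0.343). The groups of either gene overlapped. Rpl10, which joins late and completes the large subunit, averaged 384 ± 13.5 CPM in libraries labelled CRY1 KO and 387 ± 32.8 CPM in WT (SD, n = 3 each; log2 difference -0.01). Its 95% interval, -0.23 to 0.20, allows a difference of either sign.

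Rpl3, a core protein near the peptidyl transferase centre, measured 215, 217 and 223 CPM in libraries labelled CRY1 KO, below 297, 237 and 225 CPM in WT, a log2 difference of -0.21 (edgeR SE 0.12, adjusted p = 0.330). Without WT 1 that difference was -0.08. Rpl13a, which in human monocytes also leaves the ribosome to repress translation of inflammatory mRNAs, averaged 229 ± 14.8 CPM in libraries labelled CRY1 KO and 261 ± 41.3 CPM in WT (log2 difference -0.19, edgeR adjusted p = 0.420). Rpl38, which mouse embryos need for translation of Hox mRNAs, averaged 49.6 ± 4.30 CPM in libraries labelled CRY1 KO and 54.9 ± 5.15 CPM in WT (log2 difference -0.14, edgeR adjusted p = 0.458). At the upper end of the large subunit stood Rpl32 at 0.03, Rpl4 at 0.02 and Rpl7 at 0.01, each with an SE of 0.09 or 0.10 and overlapping groups. Without scaling factors Rpl4 and Rpl7 were below 0, at -0.01 each.

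Rps29, a small zinc-binding protein in the head of the small subunit, had the lowest log2 difference of all members. It measured 81.7, 78.7 and 69.2 CPM in libraries labelled CRY1 KO, against 138, 131 and 84.0 CPM in WT. WT 1 and WT 2 were far above all other libraries, while WT 3 was close to CRY1 KO 1. The log2 difference was -0.62, a level 35.0% lower, with an SE of 0.18 and a 95% interval of -1.04 to -0.20 (edgeR adjusted p = 0.119, exact permutation p = 0.1). It passed with DESeq2 (adjusted p = 0.0164) and, without WT 3, with edgeR (log2 difference -0.81, adjusted p = 0.0108).

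Rps20, also a protein of the head, measured 95.2, 90.0 and 86.1 CPM in libraries labelled CRY1 KO, against 131, 113 and 95.6 CPM in WT. The groups met almost exactly at CRY1 KO 1 and WT 3 (log2 difference -0.32, SE 0.12, edgeR adjusted p = 0.181, exact permutation p = 0.1). Without WT 3 it passed with edgeR (log2 difference -0.43, adjusted p = 0.0451). Rps9, which binds early in the assembly of the small subunit and takes part in the accuracy of decoding, was the single member with a sizeable positive difference. It measured 353, 232 and 300.4 CPM in libraries labelled CRY1 KO, against 231, 241 and 207 CPM in WT. The groups overlapped because CRY1 KO 2 was at the level of WT, and the log2 difference was 0.38 (SE 0.15, 95% interval 0.04 to 0.73, edgeR adjusted p = 0.201, exact permutation p = 0.2).

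**Figure D2:**
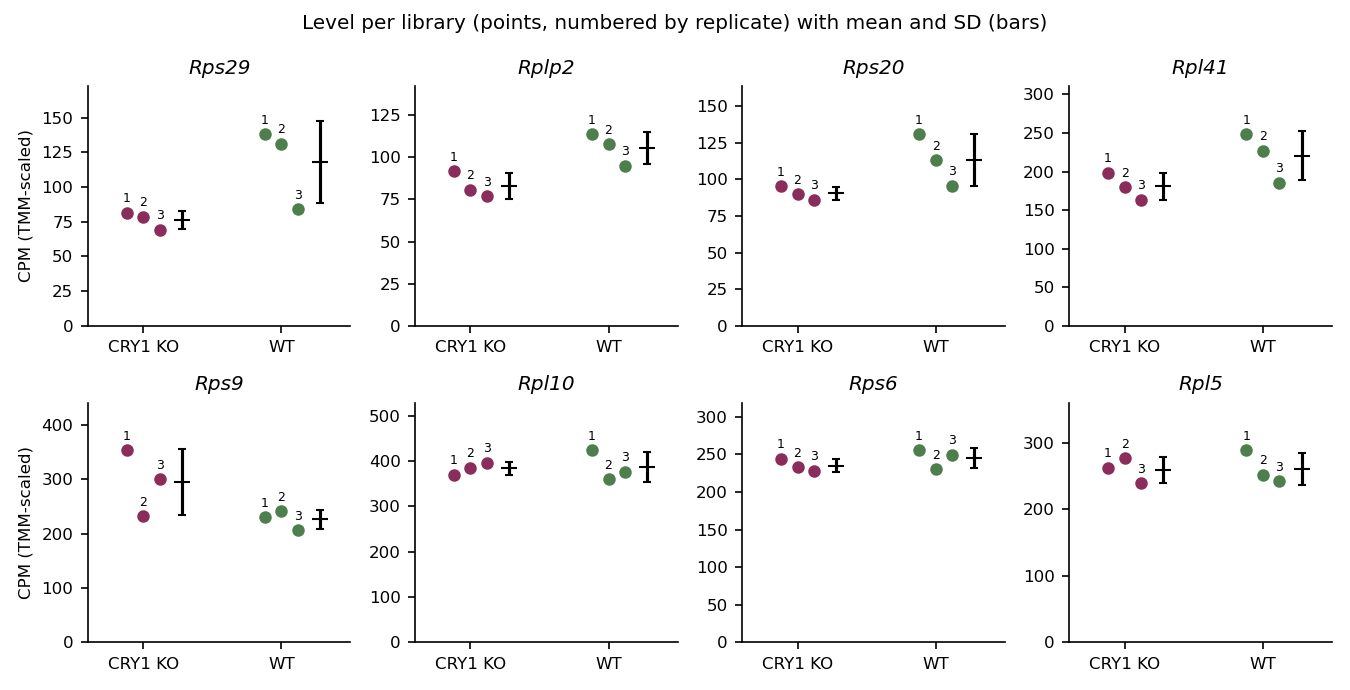
Level in TMM-scaled CPM of 8 ribosomal protein genes in each library, labelled CRY1 KO left and WT right, with points numbered by replicate and bars for the mean and SD (n = 3 each). Rps29 reaches 138 and 131 CPM in WT 1 and WT 2 and stays under 85 CPM in the other libraries, while Rps9 is at 353 and 300.4 CPM in CRY1 KO 1 and CRY1 KO 3 and at 232 CPM in CRY1 KO 2.

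Rps6, the substrate by which S6 kinase activity is usually read, measured 245, 233 and 228 CPM in libraries labelled CRY1 KO and 255, 230.1 and 249 CPM in WT (log2 difference -0.06, SE 0.09); the RNA says nothing of its phosphorylation. Rpsa, known also as the laminin receptor, averaged 380.1 ± 41.7 CPM in libraries labelled CRY1 KO and 415 ± 44.5 CPM in WT (log2 difference -0.13, edgeR adjusted p = 0.568). Rps27a, translated as a fusion with ubiquitin, averaged 152 ± 2.87 CPM in libraries labelled CRY1 KO and 168 ± 15.6 CPM in WT (log2 difference -0.15, edgeR adjusted p = 0.385). Rps4x and Rps13 were at 0.02 and 0.01 on the log2 scale, and below 0 without scaling factors. Rps14, whose loss of a copy underlies the anaemia of the human 5q- syndrome, measured 127, 126 and 126 CPM in libraries labelled CRY1 KO, within the spread of 162, 146 and 117 CPM in WT (log2 difference -0.17, SE 0.12). Without WT 1 that difference was -0.06. Rps19, the ribosomal protein most often mutated in human Diamond-Blackfan anaemia, measured 84.8, 86.2 and 82.1 CPM in libraries labelled CRY1 KO, below 104, 96.5 and 87.1 CPM in WT, with a log2 difference of -0.18 (edgeR SE 0.09, adjusted p = 0.291, exact permutation p = 0.1). All 18 members on a list of genes mutated in that human disease had a negative log2 difference, with a median of -0.16 and none called. Of all 78 tested members 71 were below 0, with a median of -0.13.

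In 16 of the 78 genes, or 20.5%, all 3 libraries labelled CRY1 KO were below all 3 WT libraries, and in none were they all above. Among all genes tested these shares were 12.7% and 14.6%. The large subunit had 10 of the 16 (Rplp2, Rpl36, Rpl27a, Rpl3, Rpl30, Rpl13, Rpl28, Rpl21, Rpl24 and Rpl22) and the small subunit had 6 (Rps29, Rps20, Rps28, Rps26, Rps19 and Rps23).

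Paralogs were few. Rpl3l, the form of Rpl3 found in heart and skeletal muscle, was the single member that missed the filter, with 0, 13 and 0 estimated counts in the libraries labelled CRY1 KO and 6, 6 and 0 in WT. Rpl36al, a close relative of Rpl36a, averaged 86.8 ± 6.27 CPM in libraries labelled CRY1 KO and 99.5 ± 8.24 CPM in WT (log2 difference -0.20, edgeR adjusted p = 0.291). Rps27l, a relative of Rps27 that p53 can induce, averaged 79.3 ± 4.94 CPM in libraries labelled CRY1 KO and 84.4 ± 10.4 CPM in WT (log2 difference -0.09). The table also had rows for 6 processed copies marked as pseudogenes. The largest, Rpl10-ps3, had 3.67% of the counts of Rpl10, and the other 5 had at most 1.18% of those of their parent. Since reads of near-identical copies can be split in ways not given in the sources used here, levels of genes with many copies are uncertain.

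Other ribosomal genes, outside the symbol rule, mostly showed the same sign. Fau (a ubiquitin-like fusion of a 40S protein), Rps3a1 and the scaffold Rack1 had log2 differences of -0.16, -0.06 and -0.07, with none called. Rpl22l1, the paralog of Rpl22, was at 0.11 (SE 0.13), Rpl7l1, a relative of Rpl7, at -0.20 (SE 0.15), and Rps27rt, a retrogene copy of Rps27, at -0.59 (edgeR adjusted p = 0.247).

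Taken as a whole, ribosomal protein genes held 1.27%, 1.16% and 1.26% of the counts in the libraries labelled CRY1 KO, against 1.37%, 1.31% and 1.34% in WT. The shares did not overlap. Without the counts of mitochondrially encoded and major urinary protein genes in the total, they were 1.63%, 1.55% and 1.51% in the libraries labelled CRY1 KO and 1.82%, 1.71% and 1.64% in WT, and CRY1 KO 1 was then at nearly the same share as WT 3. After TMM scaling the sums overlapped, with 12946, 12528 and 11782 CPM in libraries labelled CRY1 KO and 14551, 13120 and 12414 CPM in WT.

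The members varied together from library to library, also within a group. Relative to a gene's mean over the 6 libraries, the median ribosomal protein was at 0.00, -0.04 and -0.14 on the log2 scale in CRY1 KO 1, 2 and 3, and at 0.18, 0.05 and -0.05 in WT 1, 2 and 3. WT 1 was thus the highest and CRY1 KO 3 the lowest, and WT 3 was at the level of CRY1 KO 2. Other genes with short transcripts (under 1 kb, 970 genes) were at -0.02, -0.05 and -0.15 in the libraries labelled CRY1 KO and 0.12, 0.14 and -0.05 in WT. The 7640 other genes of 2.5 kb and over were at 0.01, 0.01 and 0.05 in the libraries labelled CRY1 KO and -0.05, -0.06 and 0.02 in WT. WT 1, with the highest ribosomal protein level, also had the highest summed Kupffer cell and erythroid markers, 650 and 2983 CPM. WT 2 had 408 and 1025 CPM and WT 3 had 255 and 655 CPM, so within WT both sums ran in the order of the ribosomal protein level. CRY1 KO 3, with the lowest ribosomal protein level, had 236 and 736 CPM, the highest sums of the libraries labelled CRY1 KO.

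**Figure D3:**
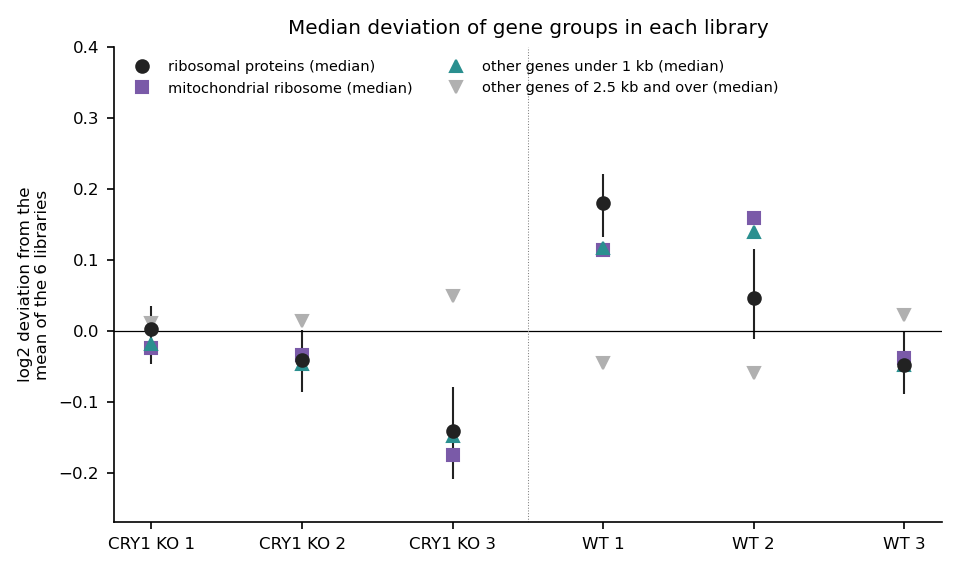
Median log2 deviation from the mean of the 6 libraries, in each library, for ribosomal proteins (circles, lines from the lower to the upper quartile), mitochondrial ribosomal proteins (squares), other genes under 1 kb (upward triangles) and other genes of 2.5 kb and over (downward triangles). Ribosomal proteins lie at 0.18 in WT 1 and -0.14 in CRY1 KO 3, and short genes lie close to them in every library but WT 1 and WT 2.

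Ribosomal protein mRNAs are short, and the log2 difference varied with transcript length across the whole table. The shortest annotated principal transcript had a median of 680.5 bases over the members and 2773 over the other tested genes. Other genes under 500 bases had a median log2 difference of -0.19 (n = 106), those of 1000 to 1499 bases one of -0.13 (n = 1459), and those of 2500 and over one of 0.04 (n = 7640). In the same classes the ribosomal proteins were at -0.18 (n = 18), -0.09 (n = 11) and, for Rps20 alone, -0.32. Rps20 is placed there by an annotated isoform of 3706 bases. Set against the median of other genes of its own length class, the median member was 0.04 higher on the log2 scale, not lower, with 27 members below that median and 51 above it. The median of -0.13 was therefore no lower than that of other genes equally short. Rps29 (-0.43), Rps20 (-0.37) and Rplp2 (-0.15) stayed farthest below their length class, and Rps9 (0.55) farthest above it. The value of Rps20 depends on its isoform of 3706 bases, while its coding length is 357 bases.

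**Figure D4:**
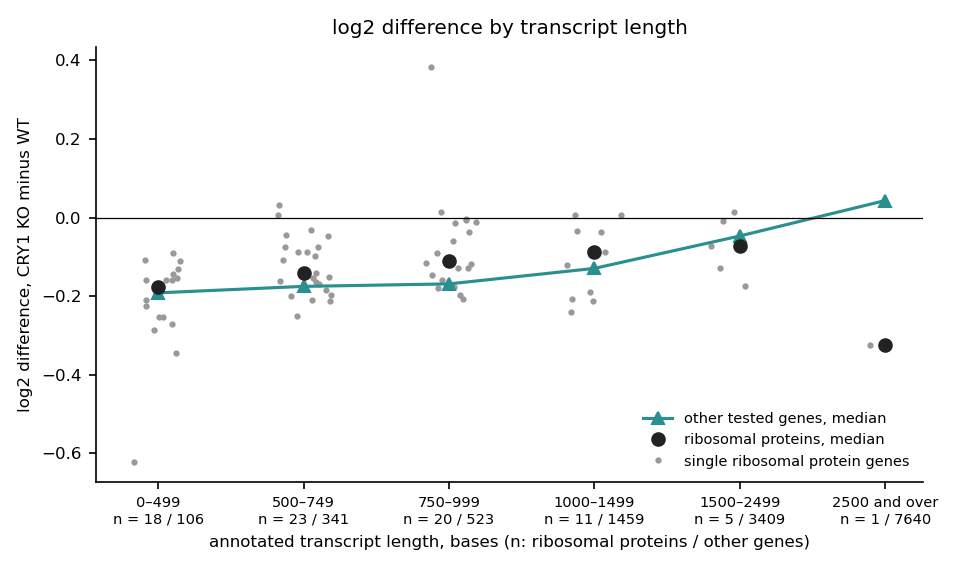
log2 difference, libraries labelled CRY1 KO minus WT, by annotated transcript length in bases: grey points are single ribosomal protein genes, black circles their median, and triangles the median of other tested genes of that length (n below the axis). Medians of other genes run from -0.19 under 500 bases to 0.04 at 2500 and over, and the ribosomal protein medians lie above the line in the classes up to 1499 bases.

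Among the members themselves the difference also varied with length. Spearman's rho between the log2 difference and transcript length was 0.37 across the 78 genes (Pearson's r 0.10), and 0.58 with coding length (Pearson's r 0.46). Over all 13556 tested genes with a length these rho values were 0.20 and 0.15. Genes are not independent replicates and share the same 6 libraries, so these are descriptions. The 61 members under 1 kb had a median of -0.14 and the 17 longer ones one of -0.09.

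Levels per length were alike for most members. Mean CPM per kb of transcript over the 6 libraries had a median of 212 and quartiles of 164 and 249 over the 78 genes, a 1.52-fold span. Rpl10 was highest with 483 CPM per kb, followed by Rpl41 with 459, and Rps20 was lowest with 27.5 on account of its long annotated isoform. In the large subunit the median was 197 CPM per kb and in the small subunit 214. These values depend on which isoform is taken as the transcript.

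The groups of genes that act around the ribosome did not all share its sign. They were not compared with other genes of equal transcript length. The mitochondrial ribosome, 78 nuclear genes for the ribosome that translates mitochondrial mRNAs, had 71 negative log2 differences and a median of -0.17, with none called. At an unadjusted p under 0.05, 18 of the 78 were lower and 1 higher, against 9.84% and 10.9% of all genes tested. The smallest p on that list belonged to Mrps25, with a log2 difference of 0.36 (edgeR adjusted p = 0.105). Nuclear genes of oxidative phosphorylation had 54 of 75 below 0 and a median of -0.08, with none called and Uqcrq, a complex III subunit, at the smallest p (log2 difference -0.41, edgeR adjusted p = 0.0845). These are mostly short transcripts as well. Elongation factors and other genes with TOP mRNAs had 9 of 18 below 0 and a median of 0.00, and none was called. Among them Nap1l1, a histone chaperone, had 57.7, 65.6 and 57.8 CPM in libraries labelled CRY1 KO and 44.2, 47.3 and 48.7 CPM in WT (log2 difference 0.37, edgeR adjusted p = 0.0736). Initiation factors had 17 of 31 below 0, a median of -0.03 and none called, and Eif3a, the largest eIF3 subunit, had the smallest p (log2 difference 0.33, edgeR adjusted p = 0.148).

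Genes of ribosome assembly had 18 of 43 below 0, a median of 0.05 and 1 call, which was higher, where 1.06% of all genes were called higher. Other genes of 2500 bases and over had a median of 0.04, and the part of transcript length was not tested. At an unadjusted p under 0.05, 11 of the 43 were higher and 2 lower, against 10.9% and 9.84% of all genes tested. Polr1a, the catalytic subunit of the RNA polymerase that makes ribosomal RNA, measured 22.8, 23.4 and 27.2 CPM in libraries labelled CRY1 KO, against 14.5, 15.03 and 13.9 CPM in WT. The groups were far apart, and the log2 difference was 0.76 (SE 0.10, edgeR adjusted p = 0.0194). The escorts of single ribosomal proteins had 4 of 7 below 0 and 3 above 0, a median of -0.22 and none called. Ltv1, which accompanies 40S assembly, had the smallest p there (log2 difference -0.29, edgeR adjusted p = 0.165). On the list of mTORC1 and its regulators 14 of 28 were below 0 (median 0.03) and 1 was called higher. That gene was Sesn2, a leucine sensor that restrains mTORC1, with 11.0, 11.8 and 12.7 CPM in libraries labelled CRY1 KO, against 7.35, 4.995 and 7.21 CPM in WT (log2 difference 0.86, SE 0.16, edgeR adjusted p = 0.0457). Polr1a and Sesn2 missed the threshold when any of CRY1 KO 1, CRY1 KO 2, CRY1 KO 3 or WT 2 was left out, with adjusted p of 0.0522 to 0.185. They also missed it without scaling factors (0.0523 and 0.0777) and with the replicate number as a block (0.0550 and 0.0823). With a library left out the log2 difference was 0.68 to 0.81 for Polr1a and 0.70 to 0.95 for Sesn2. Targets of p53, which ribosomal stress can activate, had 5 of 10 below 0 and none called, and Bbc3, a cell death gene, was nearest (log2 difference -0.99, edgeR adjusted p = 0.0515).

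**Figure D5:**
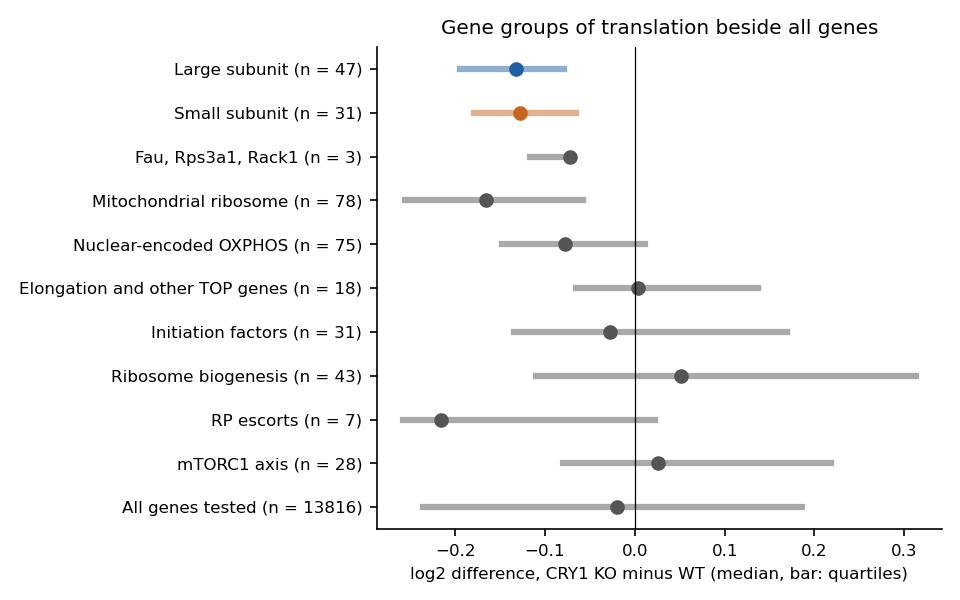
Median log2 difference (points) with quartiles (bars), libraries labelled CRY1 KO minus WT, of the ribosomal protein genes by subunit, of gene groups around translation and of all genes tested. Both subunits are at -0.13 and the mitochondrial ribosome at -0.17, while elongation and other TOP genes are at 0.00 and ribosome biogenesis genes at 0.05.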

How the data were processed

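Per the labels, RNA of 6 mouse liver samples was sequenced from TruSeq stranded libraries. The authors deposited a table of whole numbers per gene, taken here as estimated counts because StringTie is named and because the value 3 was more frequent than 1, 2 or 4 in all libraries. A unit is therefore not a single fragment. The submitters' processing notes name limma 3.42.2, StringTie 2.1.7, HISAT2 2.2.1, Trim Galore 0.6.7 and build GRCm39, with no roles or order. The annotation, the use of strand and the handling of shared reads were not given in the sources used here. All 6 columns matched sample titles.

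Genes were kept with filterByExpr (minimum count 10, minimum total 15), scaled by TMM and compared with edgeR 4.0.16 (quasi-likelihood test, robust, R 4.3.3), with Benjamini-Hochberg adjustment over all 13816 tested genes. "Called" means an adjusted p under 0.05. Levels are TMM-scaled CPM, the SE is the log2 difference divided by the root of the F statistic, and intervals are at 95%. Fits were tested on simulated data. Alternatives were DESeq2 1.42.0, limma 3.58.1, other scalings, no filter, a replicate block and each library left out.

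Transcript lengths came from GENCODE vM21, for 98.1% of tested genes. Promoters came from RefSeq on GRCm38.p6, a build other than the authors'. A gene with several starts counts once if any start holds the motif. Besides called genes, the genes named were the 6 lowest and 6 highest log2 differences, genes with fixed roles, paralogs, Cry1 and the smallest p of each other list, and genes in counts of 5 or fewer. The members, lists and named genes were chosen with earlier results of these data known. The CTTTCC motif and the length classes were added after the data were seen. Not every gene under the naming rule is reported here.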

Additional observations from a re-analysis of the deposited data

How the results depend on the processing

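For ribosomal proteins the median log2 difference was between -0.15 and -0.13 with other scalings, without the filter, with DESeq2, limma and the replicate block, and between -0.18 and -0.07 with a library left out (large subunit -0.18 to -0.08, small subunit -0.18 to -0.07). Less the median of other genes of the same transcript length it was 0.0361 (large subunit 0.0381, small subunit 0.0326). The number of called members was 0, except for 2 with DESeq2 and 0 to 2 with a library left out. Called genes of the other lists numbered 2, against 0 without scaling factors, 18 with DESeq2, 4 with limma, and 0 to 16 with a library left out. The 16 came without WT 3. Over all genes the share called was 1.7% in the main fit, 10.5% with DESeq2 and 6.04% without WT 3. The share of counts differed by -0.11 percentage points, and by -0.13 to -0.08 with a library left out. Deviations of same-numbered libraries from their group means correlated at -0.07, -0.01 and 0.07, and those of unlike-numbered libraries at -0.09 to 0.10. With so few libraries these values cannot decide whether the replicate number pairs the samples. With the number as a replicate block the median was -0.13, no member was called, and the calls on the other lists were 0. Without scaling factors Rps4x (-0.00052), Rpl4 (-0.0052), Rps13 (-0.012) and Rpl7 (-0.015) changed sign. With a library left out the sign changed for 10 genes, whose log2 differences ranged from -0.0108 to 0.0942 (Rpl32), -0.048 to 0.104 (Rps4x), -0.0272 to 0.0831 (Rpl4), -0.0363 to 0.0512 (Rps13), -0.0286 to 0.0733 (Rpl7), -0.186 to 0.0572 (Rplp0), -0.0584 to 0.069 (Rpl5), -0.0603 to 0.0587 (Rpl10), -0.14 to 0.0254 (Rack1) and -0.19 to 0.0879 (Cry1). Of 480 recomputed gene values, 429 kept their sign and their side of the threshold. Over the whole table, calls numbered 235, against 113 without scaling factors, 1306 with DESeq2, 94 with the block and 17 to 844 with a library left out. Low values carry little information, since a unit is not a fragment, and a difference of the size of the median was not detectable in most single genes, whose 95% intervals spanned 0 for all but 10 members.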
